A study of Homo sapiens with 6 samples.

Results

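Lipid droplet assembly was examined through 10 genes chosen by name (FITM2, BSCL2, TMEM159, PLIN2, PLIN3, PLIN4, HILPDA, ACSL3, LDAH and RAB18), each a single row among the 58978 loci of the gene count table. The cells were HT29, an established line from a human colorectal adenocarcinoma. The shFITM2 group carried a short hairpin RNA against FITM2 (labelled as a FITM2 knockdown), and the shCTRL group carried a control hairpin (labelled WT). Both groups were otherwise untreated and were measured by RNA-seq in 3 libraries each. The sources used here give neither the hairpin sequences nor whether the cells were pools or clones.

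Lipid droplets form when triacylglycerol and sterol esters collect between the leaflets of the endoplasmic reticulum membrane and bud into the cytosol under a single phospholipid layer. Seipin (BSCL2) and its partner TMEM159 mark the sites where neutral lipid first collects, and FITM2, an enzyme of the endoplasmic reticulum membrane, is needed for droplets to bud. ACSL3 activates fatty acids at the growing droplet, perilipins coat its surface, HILPDA slows its lipolysis, LDAH is a hydrolase bound to it, and RAB18 is a GTPase at its contacts with the endoplasmic reticulum.

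The libraries held 16964075 to 18855731 reads. Epithelial keratin genes were abundant and the 9 colon epithelial markers summed to 13800 to 14600 CPM (read counts scaled to the size of the library) in shFITM2 and 10100 to 12200 CPM in shCTRL, although CDX1 and CDX2 were each below 2 CPM on average in both groups. In the group fit 6 of the 9 were called higher and 1 (EPCAM) lower, against 3 and 2 under the offset described next. Among all tested genes 24.2% were called higher and 24.5% lower in the group fit, and 11.8% and 17.4% under the offset. The part of these markers in the results below was not tested. The 11 markers of fibroblasts, leukocytes, endothelium, adipocytes and hepatocytes summed to 1.71 to 2.07 CPM in shFITM2 and 1.64 to 3.28 CPM in shCTRL. Of these, 5 had no read in any library, among them the adipocyte genes ADIPOQ, FABP4 and LEP. Fold changes between the groups followed the GC content of the transcripts: the median log2 fold change was 0.70 in the tenth of tested genes with the highest GC content and −0.47 in the tenth with the lowest. The library of shCTRL replicate 3 stood apart from the other controls, at −10.7 on the first principal component (64.7% of the variance) against −38.8 and −49.2 for the other controls and 28.7 to 36.4 for shFITM2. Each fold change is therefore given from a fit with the group as the sole term (the group fit) and from a fit that removes each library's trend with GC content (the GC offset). What the trend with GC content comes from was not tested.

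FITM2 and LDAH were lower, and TMEM159 was higher, in shFITM2 cells with and without the GC offset. ACSL3 was lower in both fits, but only slightly with the GC offset. RAB18 was called lower, and BSCL2, PLIN3 and PLIN4 were called higher, in the group fit alone. PLIN2 and HILPDA passed the test in neither. In counts, 4 members rose and 4 fell in the group fit, where 24.2% of the 14809 tested genes were called higher and 24.5% lower (48.7% in all, at an adjusted p under 0.05). With the GC offset 1 rose and 3 fell, where 11.8% of 14635 genes were called higher and 17.4% lower (29.2% in all). FITM2, the hairpin's own target, is counted among the members that fell in both fits. The members' median log2 fold change was −0.05 in the group fit and −0.09 with the GC offset, against medians of −0.00 and −0.03 over all tested genes. All 10 members passed the filter on low counts. Without shCTRL replicate 3, PLIN2 joined the members called lower in the group fit (9 called, against 59.0% of all tested genes). Under the offset and without that library, 7 were called, now with PLIN2, PLIN3 and RAB18 (37.3% of all tested genes). Leaving out any other single library under the offset called none of PLIN2, PLIN3 and RAB18.

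**Figure D1:**
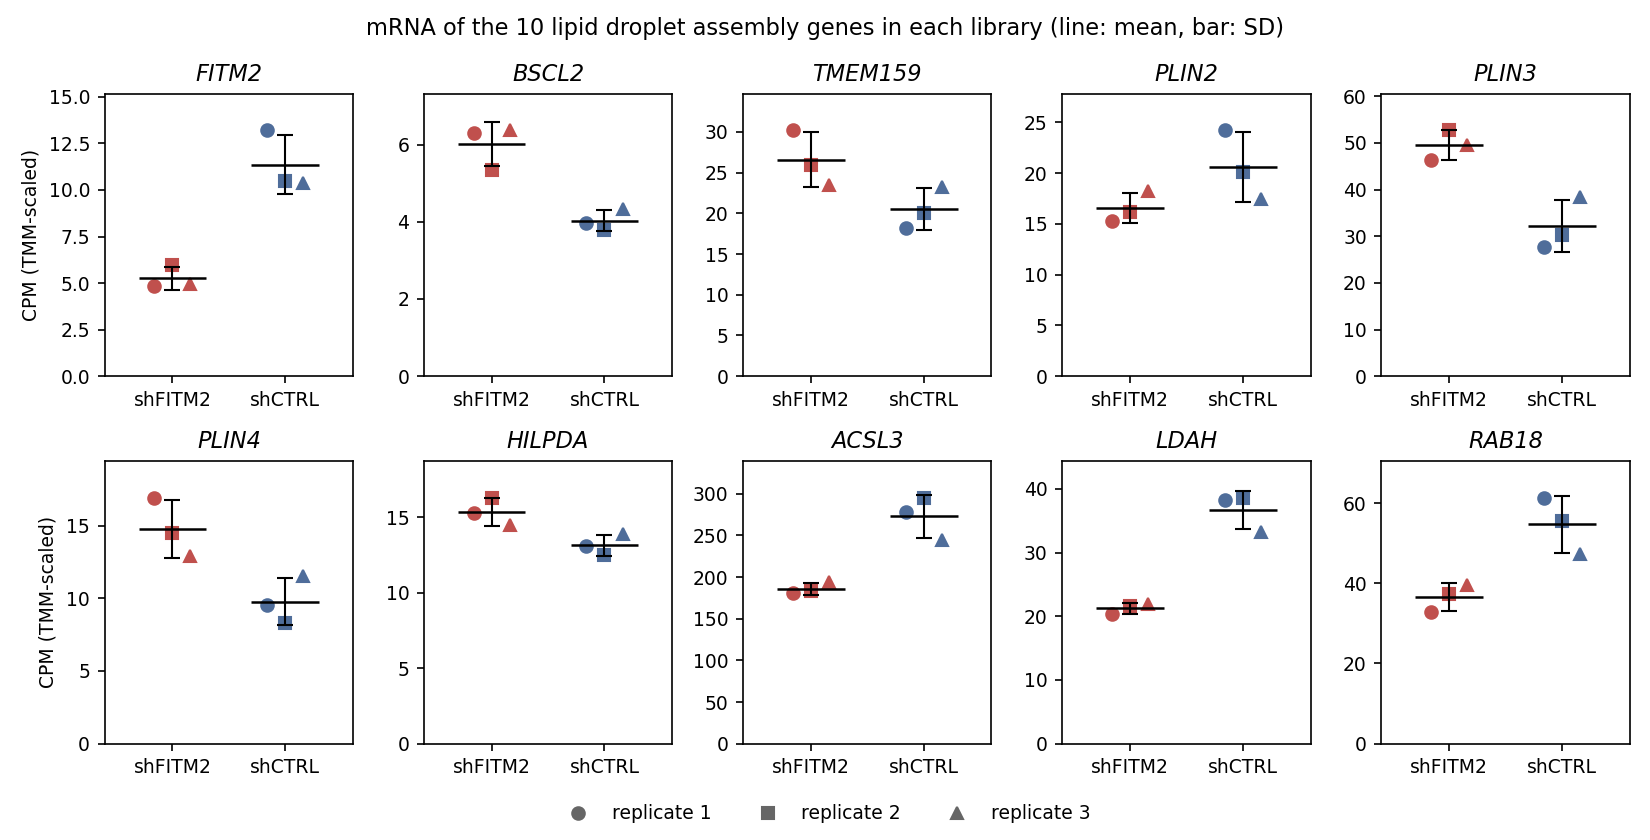
Level in CPM of the 10 genes in each library, with shFITM2 left of shCTRL in every panel (marker shape: replicate; line: mean; bar: SD, n = 3). The groups are apart for 9 of the 10 genes, as for 59.0% of all tested genes, and overlap for PLIN2. The control library nearest to the shFITM2 mean is shCTRL replicate 3 in all 10 panels.

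FITM2, the target of the hairpin (ENSG00000197296, GRCh38 chromosome 20, 44302838 to 44311169, minus strand), had 88, 104 and 84 reads in the shFITM2 libraries and 250, 195 and 178 reads in the shCTRL libraries. Scaled by library, this was 4.83, 5.98 and 4.95 CPM in shFITM2 and 13.2, 10.5 and 10.4 CPM in shCTRL. Every knockdown library lay below every control library. The log2 fold change was −1.12 ± 0.157 (SE; edgeR's quasi-likelihood test, Benjamini-Hochberg adjusted p = 0.000242), which leaves 46% of the control level with a 95% confidence interval of 36.3% to 58.2%. With the GC offset it was −1.10 (adjusted p = 6.5e-05). Permuting the libraries over the groups gave an exact two-sided p of 0.1, the lowest a design of 3 against 3 can reach, for FITM2 and 8 of the other members, and 0.2 for PLIN2. Groups without overlap give this lowest p, and 59.0% of all tested genes had such groups. In RNA from whole cultures, fewer cells with the transcript and less transcript per cell cannot be told apart.

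FITM2 was a weakly expressed member. Per kilobase of exon it had 1.14 ± 0.137 RPKM (CPM per kilobase of exon) in shFITM2 and 2.48 ± 0.346 RPKM in shCTRL (SD, n = 3 each), the lowest level of the 10 genes in shFITM2 and the eighth in shCTRL. Its coding sequence has 786 bases and its 3′ untranslated region 3787, so most of its exon length lies outside the coding part. Over the 6 libraries, the log2 CPM values most like those of FITM2 among 10549 genes with a mean of at least 5 CPM were those of TMEM267 (Pearson r = 0.999), RTRAF (0.999), DARS, the aspartyl-tRNA synthetase gene (0.997), EBNA1BP2 (0.996) and CCNE1, which encodes cyclin E (0.996). These correlations are a description over 6 libraries in 2 groups, and 20% of the genes compared had an r over 0.9.

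For 8 of the 10 members RefSeq promoter entries of build GRCh38.p14 were found, and the 250 bases before the start site are shown for 5 genes that differ in how they moved: FITM2, LDAH and RAB18 among those lower in the group fit, PLIN3 among those higher, and PLIN2, the one gene whose groups overlapped. Capitals mark exact matches, on either strand, to the NRF1 site (GCGCA followed by its reverse complement), the cyclic AMP response element TGACGTCA, the E-box CACGTG, the CCAAT box CCAAT, the TATA box TATAAA, the GC box GGGCGG or the ETS site CCGGAAGT. The sequences run 5′ to 3′ on the strand of the gene. The RefSeq start sites differ from the gene spans given here. The windows of RAB18, LDAH, PLIN2 and PLIN3 lie partly or wholly inside those spans, including the marked NRF1 site of RAB18 and the marked response element of LDAH. The start site used for FITM2 lies outside its span.
FITM2 (chr20:44311203-44311452, minus strand): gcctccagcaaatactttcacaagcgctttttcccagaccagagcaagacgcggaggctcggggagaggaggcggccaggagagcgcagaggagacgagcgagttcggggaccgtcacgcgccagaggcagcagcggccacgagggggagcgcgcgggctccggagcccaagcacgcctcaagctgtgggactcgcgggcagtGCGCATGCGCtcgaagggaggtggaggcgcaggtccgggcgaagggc
RAB18 (chr10:27504054-27504303, plus strand): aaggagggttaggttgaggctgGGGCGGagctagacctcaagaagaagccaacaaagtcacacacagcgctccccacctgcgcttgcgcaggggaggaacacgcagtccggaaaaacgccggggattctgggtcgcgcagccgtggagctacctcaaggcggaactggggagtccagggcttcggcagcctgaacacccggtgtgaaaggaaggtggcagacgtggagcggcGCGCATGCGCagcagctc
LDAH (chr2:20823102-20823351, minus strand): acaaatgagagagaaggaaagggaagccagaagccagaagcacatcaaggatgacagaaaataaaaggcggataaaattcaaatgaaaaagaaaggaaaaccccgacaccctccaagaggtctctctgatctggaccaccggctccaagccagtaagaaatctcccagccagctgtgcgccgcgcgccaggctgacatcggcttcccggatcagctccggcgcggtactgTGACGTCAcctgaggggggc
PLIN2 (chr9:19127493-19127742, minus strand): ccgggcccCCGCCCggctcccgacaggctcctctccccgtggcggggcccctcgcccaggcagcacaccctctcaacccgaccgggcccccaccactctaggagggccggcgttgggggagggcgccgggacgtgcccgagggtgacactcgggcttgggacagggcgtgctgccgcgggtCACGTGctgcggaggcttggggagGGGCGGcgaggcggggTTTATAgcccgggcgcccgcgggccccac
PLIN3 (chr19:4867668-4867917, minus strand): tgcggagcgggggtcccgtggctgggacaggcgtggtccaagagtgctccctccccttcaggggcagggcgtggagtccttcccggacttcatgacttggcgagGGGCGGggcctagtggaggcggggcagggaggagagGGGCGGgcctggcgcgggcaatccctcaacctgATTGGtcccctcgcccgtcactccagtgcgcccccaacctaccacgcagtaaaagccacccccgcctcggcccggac

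FITM2 and RAB18 both held the NRF1 site, first base at −47 and −18 from the start site, a site found in 1.03% of 35116 RefSeq promoter windows of this length. The window of ACSL3, also lower in the group fit but not shown, held GC boxes and a CCAAT box and no NRF1 site. LDAH held the cyclic AMP response element at −20, found in 1.65% of windows. PLIN2 held an E-box at −69 (6.34% of windows) and a TATA box in the reverse orientation at −29 (10.7%). PLIN3 held a pair of GC boxes (42.6%) and a CCAAT box in the reverse orientation (32.0%). A match is a description of the letters in the window and not a measured binding site.

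Among the genes that mark where droplets form, BSCL2 was called higher only in the group fit, and TMEM159 in both fits. BSCL2 (ENSG00000168000, chromosome 11, 62690275 to 62709845, minus strand) had 115, 93 and 108 reads in shFITM2 and 75, 70 and 74 reads in shCTRL, or 6.31, 5.35 and 6.37 CPM against 3.97, 3.79 and 4.34 CPM. The groups did not overlap, as for 59.0% of all tested genes in either direction. The log2 fold change of BSCL2 was 0.58 ± 0.168 (SE, edgeR adjusted p = 0.0143) and 0.27 ± 0.168 (adjusted p = 0.259) with the GC offset, with a 95% interval of −0.09 to 0.62. Its call in the group fit was also lost without shFITM2 replicate 1 (adjusted p = 0.0606) and without shFITM2 replicate 3 (0.0531). BSCL2 shares 1610 of its 3965 exon bases with the readthrough gene HNRNPUL2-BSCL2 on the same strand, which has 3 reads over all libraries, so the level of BSCL2 covers only the reads assigned to it; the handling of reads in shared bases is not stated in the sources used here.

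TMEM159, the seipin partner also known as LDAF1 or promethin (ENSG00000011638, chromosome 16, 21158377 to 21180616, plus strand), had 30.2, 26.0 and 23.5 CPM in shFITM2 and 18.2, 20 and 23.3 CPM in shCTRL. The lowest knockdown library and shCTRL replicate 3 nearly met. Its log2 fold change was 0.38 ± 0.123 (SE, edgeR adjusted p = 0.0246) and 0.31 ± 0.109 (adjusted p = 0.0436) with the GC offset. In the group fit the call was lost with shFITM2 replicate 1 left out (adjusted p = 0.138) or shFITM2 replicate 2 (0.0648), and with shCTRL replicate 1 (0.114) or shCTRL replicate 2 (0.0525) left out. Under the offset it held only without shFITM2 replicate 3 or shCTRL replicate 3 among these alternatives.

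The perilipin genes did not move together. PLIN3, the perilipin that moves from the cytosol onto young droplets, was higher in shFITM2 in the group fit, as was PLIN4, whose protein is best known from adipocytes, whereas PLIN2, the perilipin that stays bound to droplets in most cells, was not called. PLIN3 (ENSG00000105355, chromosome 19, 4838341 to 4867768, minus strand) had 46.4, 52.7 and 49.5 CPM in shFITM2 and 27.7, 30.3 and 38.5 CPM in shCTRL, without overlap. Its log2 fold change was 0.62 ± 0.118 (SE, edgeR adjusted p = 0.0013) and 0.17 ± 0.086 (adjusted p = 0.162) with the GC offset. Without shCTRL replicate 3, PLIN3 was called with the GC offset too, at 0.23 (adjusted p = 0.0217). It was not called under the offset with any other single library left out (0.09 without shCTRL replicate 1, adjusted p = 0.524).

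PLIN4 (ENSG00000167676, chromosome 19, 4502180 to 4518465, minus strand) had 16.9, 14.5 and 12.9 CPM in shFITM2 and 9.54, 8.28 and 11.5 CPM in shCTRL. All knockdown values were above all control values, with a log2 fold change of 0.60 ± 0.15 (SE, edgeR adjusted p = 0.00655). With the GC offset it was −0.04 (adjusted p = 0.82; 95% interval −0.29 to 0.20), so the sign turned and no difference was detected. PLIN4 has the highest transcript GC content of the 10 genes, 62.4%, and 32 of its exon bases overlap HDGFL2 on the opposite strand, a gene with 6149 reads against 1307 for PLIN4.

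PLIN2 (ENSG00000147872, chromosome 9, 19108375 to 19149290, minus strand) had 15.3, 16.2 and 18.2 CPM in shFITM2 and 24.2, 20.1 and 17.4 CPM in shCTRL. It was the sole member whose groups overlapped, through shCTRL replicate 3 and shFITM2 replicate 3. The log2 fold change was −0.31 ± 0.131 (SE, edgeR adjusted p = 0.0664) and nearly the same with the GC offset, −0.33 ± 0.119 (adjusted p = 0.0506). Without shCTRL replicate 3 it was −0.43 in both fits (adjusted p = 0.00116 and 0.000983). PLIN2 was called in neither fit when any other single library was left out. Without shCTRL replicate 1 it was −0.19 in the group fit (adjusted p = 0.287) and −0.2 with the GC offset (0.267). PLIN1, the adipocyte perilipin, and PLIN5, that of oxidative tissues, were each below 2 CPM in every library. PLIN5 shares 1047 exon bases with AC011498.4 on its own strand.

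Within a library, the balance of PLIN3 and PLIN2 does not depend on how libraries are scaled. Length-scaled PLIN3 reads were 5.47, 5.89 and 4.92 times those of PLIN2 in shFITM2 and 2.07, 2.72 and 4.00 times in shCTRL. The highest control, shCTRL replicate 3, stayed below the lowest knockdown library. The mean log2 ratio was 2.44 ± 0.131 in shFITM2 and 1.50 ± 0.478 in shCTRL (SD, n = 3 each), a difference of 0.94 (exact two-sided permutation p = 0.1, the smallest possible). With the GC trend removed from each gene the ratios were 4.56, 4.99 and 4.33 in shFITM2 and 2.52, 3.41 and 4.22 in shCTRL, a log2 difference of 0.48 (exact permutation p = 0.1). PLIN2 made up 14.1 ± 1.21% of the length-scaled reads of PLIN2, PLIN3 and PLIN4 in shFITM2 and 24.1 ± 5.77% in shCTRL, and PLIN3 made up 76.1 ± 1.47% in shFITM2 and 67.0 ± 5.64% in shCTRL. These ratios and shares rest on the deposited exon lengths, 5086 bases for PLIN2 and 2813 for PLIN3. Their longest coding transcripts have 1972 and 2333 bases. Transcript lengths would give lower ratios and a larger PLIN2 share in every library, but the same log2 difference between the groups.

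**Figure D2:**
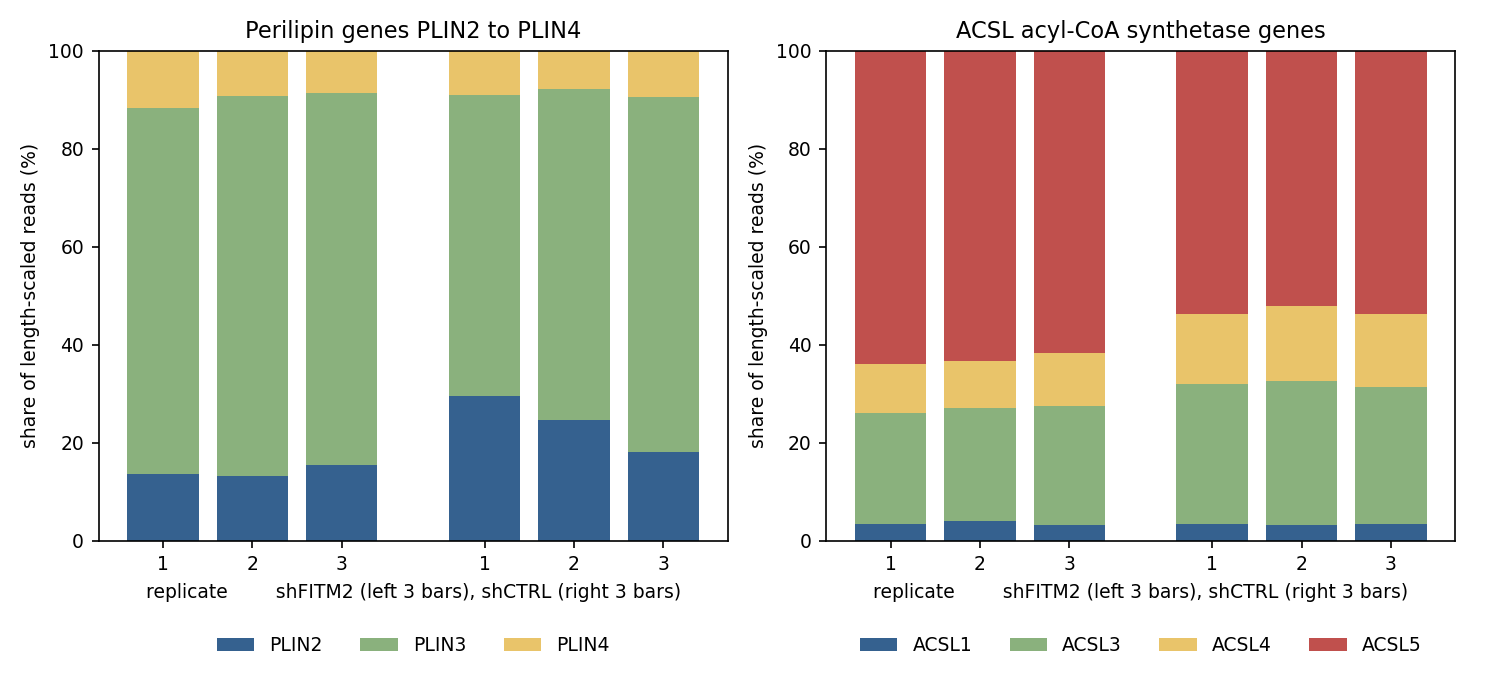
Share of each gene in the length-scaled reads of its family, in percent, for each library (left 3 bars shFITM2, right 3 bars shCTRL; left panel PLIN2 to PLIN4, right panel ACSL genes, with ACSL6 at 0 reads left out). PLIN2 takes 13.2% to 15.4% in the shFITM2 libraries and 18.1% to 29.6% in the shCTRL libraries, and ACSL3 takes 22.7% to 24.2% in shFITM2 and 28.0% to 29.4% in shCTRL.

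ACSL3, the acyl-CoA synthetase that moves from the endoplasmic reticulum onto nascent droplets, was the most abundant member. The gene (ENSG00000123983, chromosome 2, 222860934 to 222944639, plus strand) had 181, 183 and 194 CPM in shFITM2 and 278, 295 and 245 CPM in shCTRL, with the groups well apart. Its log2 fold change was −0.55 ± 0.0773 (SE, edgeR adjusted p = 0.000243), 68.3% of the control level. With the GC offset it was −0.13 ± 0.0432 (adjusted p = 0.0345), a call lost with length added to the offset (−0.11, adjusted p = 0.0686) and when any library other than shCTRL replicate 3 was left out (adjusted p from 0.0703 to 0.152).

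ACSL3 was not the main ACSL transcript of these cells. Among ACSL1, ACSL3, ACSL4 and ACSL5, ACSL5, the synthetase typical of intestinal epithelium, made up 62.9 ± 1.18% of length-scaled reads in shFITM2 and 53.2 ± 0.888% in shCTRL (SD, n = 3 each). ACSL3 made up 23.3 ± 0.823% in shFITM2 and 28.6 ± 0.703% in shCTRL, and ACSL4, which prefers arachidonic acid, 10.2 ± 0.588% in shFITM2 and 14.8 ± 0.467% in shCTRL. ACSL4 fell in both fits (log2 fold change −0.79 in the group fit and −0.35 with the offset; edgeR adjusted p = 6.0e-05 and 0.00014). ACSL5 was level in the group fit (−0.01, adjusted p = 0.907) and higher with the GC offset (0.17, adjusted p = 0.0113), and 144 of its exon bases overlap ZDHHC6, which lies antisense to it. Among 8 tested genes in the list of other acyl-CoA synthetases and fatty acid transport proteins, 2 were higher and 2 lower in the group fit, and 1 and 2 with the GC offset (median 0.12 and −0.13). Over all tested genes the shares were 24.2% and 24.5%, and 11.8% and 17.4% with the GC offset. SLC27A2, a very long-chain acyl-CoA synthetase, fell alike in both (−0.94 and −0.95; adjusted p = 0.000142 and 1.2e-05). SLC27A1 (1.00 and 0.32) and SLC27A3 (0.71 and 0.12) passed the test in the group fit but not with the offset, and SLC27A3 shares 455 exon bases with INTS3 on its own strand.

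LDAH had the largest fall after FITM2 among the 10 genes in both fits. The gene (ENSG00000118961, chromosome 2, 20684014 to 20823130, minus strand) had 369, 376 and 371 reads in shFITM2 and 721, 714 and 567 reads in shCTRL, or 20.3, 21.6 and 21.9 CPM against 38.2, 38.6 and 33.3 CPM. The groups were far apart relative to their spread. The log2 fold change was −0.79 ± 0.0956 (SE, edgeR adjusted p = 0.000117), 57.8% of the control level, and −0.50 ± 0.0788 (adjusted p = 0.000235) with the GC offset. No overlapping exon of another gene was annotated for LDAH. HILPDA, a small droplet protein induced in hypoxia that inhibits the triacylglycerol lipase ATGL (ENSG00000135245, chromosome 7, 128455849 to 128458418, plus strand), had 15.3, 16.3 and 14.5 CPM in shFITM2 and 13.1, 12.5 and 13.9 CPM in shCTRL. Its groups did not overlap, but the difference did not pass the test (log2 fold change 0.22 ± 0.108, adjusted p = 0.11, edgeR; 0.11 with the GC offset, adjusted p = 0.449; 95% interval −0.10 to 0.33).

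RAB18 (ENSG00000099246, chromosome 10, 27504174 to 27542237, plus strand) had 32.8, 37.3 and 39.6 CPM in shFITM2 and 61.3, 55.6 and 47.2 CPM in shCTRL. Every knockdown value was below every control value, and the log2 fold change was −0.58 ± 0.11 (SE, edgeR adjusted p = 0.00128). With the GC offset it was −0.15 ± 0.0805 (adjusted p = 0.193), and without shCTRL replicate 3 as well it was −0.19 and called (adjusted p = 0.042). RAB18 was not called under the offset with any other single library left out (−0.06 without shCTRL replicate 1, adjusted p = 0.628). The 9 genes listed as RAB18 partners cover its exchange factor, tether subunits, SNAREs and TBC1D20. Of these, 1 was higher and 4 were lower in the group fit, and 1 and 3 with the GC offset (median −0.19 and −0.07). For all tested genes it was 24.2% higher and 24.5% lower, and 11.8% and 17.4% with the GC offset. RINT1 and ZW10, subunits of the tether that RAB18 engages on the endoplasmic reticulum, fell in both fits (RINT1 −0.86 and −0.55, adjusted p = 0.000135 and 0.000354; ZW10 −0.61 and −0.38, adjusted p = 0.000563 and 0.00094, edgeR). RAB3GAP2, a subunit of the RAB18 exchange factor, had −0.56 and −0.19 (adjusted p = 0.000372 and 0.0334). USE1, a SNARE of the same site, rose (0.71 and 0.36; adjusted p = 0.00255 and 0.0497).

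**Figure D3:**
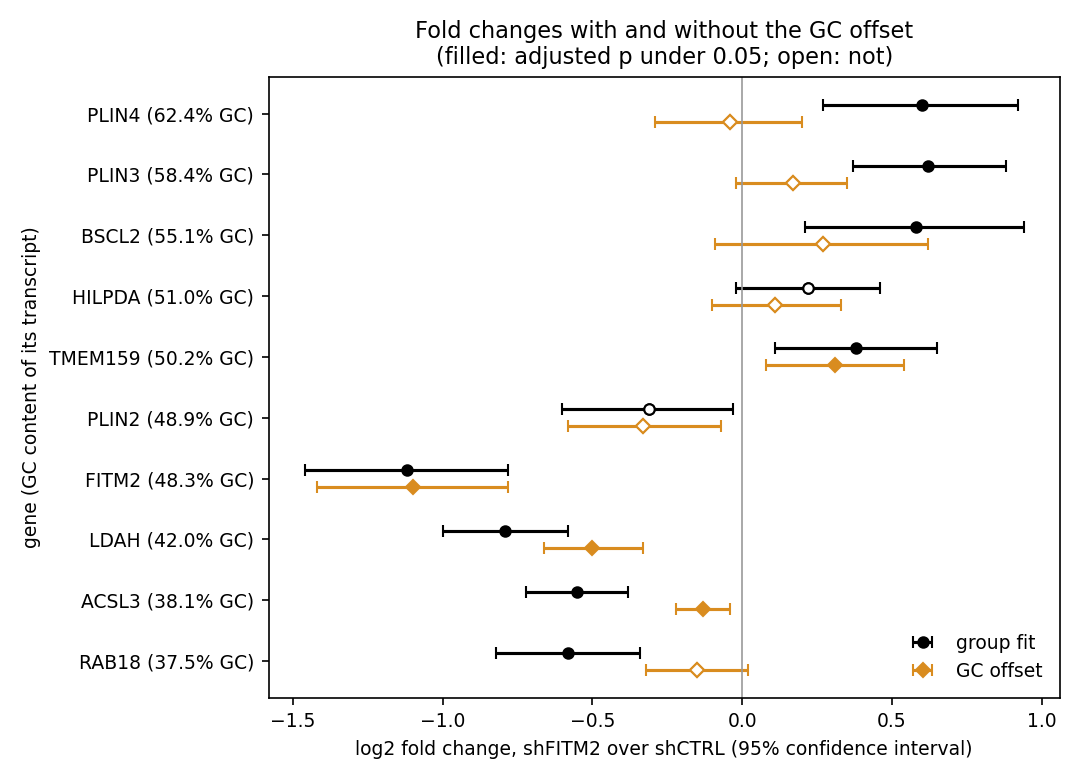
Log2 fold change of each gene, shFITM2 over shCTRL, with its 95% confidence interval, in the group fit (black circles) and with the GC offset (orange diamonds), ordered by transcript GC content (filled: adjusted p under 0.05). The intervals of FITM2, LDAH, ACSL3, PLIN2 and TMEM159 lie on one side of 0 in both fits, while PLIN4 has 0.60 in the group fit and −0.04 with the offset.

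Members with GC-rich transcripts were higher in the group fit, and members with GC-poor transcripts were lower. The 3 members under 45% GC (RAB18 37.5%, ACSL3 38.1% and LDAH 42.0%) were all lower in shFITM2, and the 3 over 55% (BSCL2 55.1%, PLIN3 58.4% and PLIN4 62.4%) were all higher. For 6 members (BSCL2, PLIN3, PLIN4, HILPDA, ACSL3 and RAB18) the fold change lay within the interquartile range of all tested genes of the same GC decile. BSCL2 and PLIN3 sit at the lower edges of their deciles, which start at 55.1% and 58.3% GC. Against the next lower deciles, with upper quartiles of 0.44 and 0.61, BSCL2 and PLIN3 would lie above the range. PLIN4 at 0.60 was close to its decile's median of 0.70, PLIN3 at 0.62 to 0.50, and ACSL3 at −0.55 and RAB18 at −0.58 to −0.47. Outside that range were FITM2 (decile median −0.08), LDAH (−0.31) and PLIN2 (0.04), all below it, and TMEM159 (0.04), above it. The first 120 coding bases (GENCODE release 29, GRCh38) are shown for ACSL3 (28.3% GC) and PLIN4 (68.3%). This stretch does not follow the whole transcript in every member. It is 53.3% GC in RAB18, whose transcript has 37.5%, and 71.7% in FITM2, whose transcript has 48.3%. The start codon is in capitals.
ACSL3 (chromosome 2): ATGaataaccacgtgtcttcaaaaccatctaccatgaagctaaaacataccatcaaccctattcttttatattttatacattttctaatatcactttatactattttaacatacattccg
PLIN4 (chromosome 19): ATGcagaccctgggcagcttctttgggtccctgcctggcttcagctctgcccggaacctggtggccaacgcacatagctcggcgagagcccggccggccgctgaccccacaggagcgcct

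**Figure D4:**
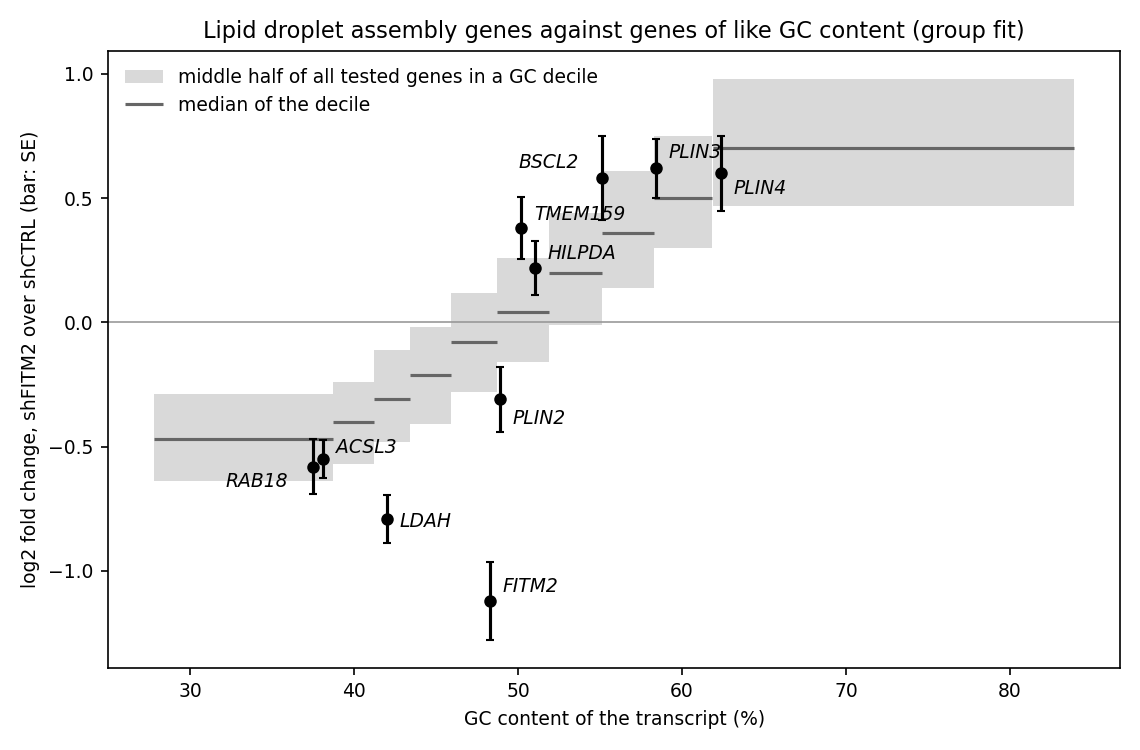
Log2 fold change in the group fit (shFITM2 over shCTRL, bar: SE) against transcript GC content for the 10 genes, over the interquartile range (grey) and median (line) of all tested genes in each GC decile. FITM2, LDAH and PLIN2 lie below the grey boxes of their deciles and TMEM159 above, and the other 6 genes lie inside theirs.

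Levels were compared between genes per kilobase of exon. In shFITM2 the order was ACSL3 (25.7 ± 0.987 RPKM), PLIN3 (17.6 ± 1.12), TMEM159 (10.4 ± 1.31), HILPDA (7.42 ± 0.427), RAB18 (5.87 ± 0.551), LDAH (4.79 ± 0.197), PLIN2 (3.25 ± 0.288), PLIN4 (2.27 ± 0.308), BSCL2 (1.52 ± 0.145) and FITM2 (SD, n = 3 each), with no overlap between neighbours. In shCTRL it was ACSL3 (37.6 ± 3.50 RPKM), PLIN3 (11.4 ± 2.00), RAB18 (8.79 ± 1.14), LDAH (8.28 ± 0.673), TMEM159 (8.02 ± 1.00), HILPDA (6.37 ± 0.340), PLIN2 (4.04 ± 0.672), FITM2, PLIN4 (1.50 ± 0.250) and BSCL2 (1.02 ± 0.0711). The ranges over the control libraries of PLIN3, RAB18, LDAH and TMEM159 overlapped from one neighbour to the next, so these ranges do not resolve the order of neighbours among them in shCTRL. PLIN3, at 9.83 RPKM or more, did stay above LDAH (at most 8.71) and TMEM159 (at most 9.1). With the deposited exon lengths, HILPDA stood above RAB18 and LDAH in every shFITM2 library and below both in every shCTRL library. These lengths cover all annotated transcripts of a gene, which understates the level of genes whose longest forms are not expressed. They are 2070 bases for HILPDA, 5086 for PLIN2 and 3965 for BSCL2, whose longest coding transcripts have 1349, 1972 and 1984. The order of the genes depends on the lengths used. With transcript lengths HILPDA would not lie below RAB18 and LDAH in every shCTRL library.

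Other proteins of the droplet surface went both ways. Of 13 tested genes in this list of 18, 3 were higher and 4 lower in the group fit, and 2 and 3 with the GC offset, in part other genes (median 0.07 and −0.03). Across all tested genes the shares were 24.2% and 24.5%, and 11.8% and 17.4% with the GC offset. ZFYVE1, a droplet and endoplasmic reticulum protein that binds RAB18, rose in both fits (15.1 ± 2.17 CPM in shFITM2 and 8.83 ± 0.345 CPM in shCTRL; log2 fold change 0.77 and 0.56; adjusted p = 0.000729 and 0.00344, edgeR). AUP1, which recruits ubiquitin enzymes to droplets, had 0.35 and −0.17, called in opposite directions (adjusted p = 0.00924 and 0.0331), and 483 of its exon bases overlap HTRA2 on the opposite strand. The lipid transfer genes VPS13A and VPS13C had −0.43 and −0.35 in the group fit and 0.02 and 0.10 with the GC offset, where neither was called. CIDEA and CIDEB had no read in any library, and FITM1, the muscle relative of FITM2, had at most 6.

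Of the lipases that break droplets down and their regulators, 3 of 5 tested genes were higher and 1 lower in the group fit, and 1 and 1 with the GC offset (median 0.74 and 0.18). All tested genes had 24.2% higher and 24.5% lower, and 11.8% and 17.4% with the GC offset. PNPLA2, which encodes ATGL, the first lipase of the pathway and the one HILPDA inhibits, rose in both fits (log2 fold change 0.98 in the group fit, 0.24 with the offset; 249 ± 10.3 CPM in shFITM2 and 126 ± 27.8 CPM in shCTRL; adjusted p = 0.000803 and 0.00112, edgeR). LIPE, the hormone-sensitive lipase gene, had 0.74 and 0.18, and ABHD5, the ATGL activator gene, −0.31 and 0.13, neither called with the GC offset. MGLL, the monoacylglycerol lipase gene, had 0.27 and −0.18, called in opposite directions (adjusted p = 0.0068 and 0.0104). ABHD5 shares 170 exon bases with ANO10 on the opposite strand.

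Other genes induced in hypoxia, as HILPDA is, were higher in 4 and lower in 1 of 10 tested genes in the group fit, and in 2 and 1 with the GC offset (median 0.36 and 0.03). Beside this list and the PPAR targets below stand the shares of all tested genes, 24.2% and 24.5%, and 11.8% and 17.4% with the GC offset. NDRG1 (1.04 and 0.59; adjusted p = 4.5e-05 and 0.00022) and VEGFA, the vascular growth factor gene (0.46 and 0.33; adjusted p = 0.000448 and 0.000207), rose in both fits, and PDK1, which restrains pyruvate dehydrogenase, fell in both (−0.75 and −0.39; adjusted p = 0.000701 and 0.0152, edgeR), with 445 exon bases overlapping AC078883.1 on the opposite strand. CA9 had 0.41 and −0.13, where the second was not called, with 643 of its exon bases overlapping ARHGEF39 on the opposite strand. Among other PPAR targets, to which PLIN2 belongs, 1 was higher and 1 lower of 6 tested, and 1 and 2 with the GC offset (median −0.13 and −0.01). ACAA2, a thiolase of fatty acid oxidation, fell in both (−0.31 and −0.17; adjusted p = 0.00325 and 0.0214). ACADVL had 0.66 and 0.17, where the second was not called, and CPT1A (−0.12 and −0.22) and PDK4 (−0.14 and 0.24) were called with the GC offset alone.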

How the data were processed

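RNA-seq of 6 libraries was analysed from a single table of raw counts per gene that the authors deposited. Library preparation kept the strand of each RNA, per the labels' protocols. Per the submitters' processing notes the tools included featureCounts 1.5.0-p3, HISAT2 2.0.5, DESeq2 1.16.1 and StringTie 1.3.3b, and the build listed was hg19; no roles are given. The table's gene positions for these members are those of GENCODE release 29 on GRCh38. The strand setting of the counting is not given in the sources used here. The deposited exon length per gene is another column (an other unit, in bases). Loci without an Ensembl identifier (243) held 0.0642% of reads.

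The group and number of each library were read from its title. Separate cultures are not stated, so p-values cover the spread among these libraries, and part or all of it may be technical. Replicates differed by more than sampling noise (chi-square per gene 2.35 to 28.6), so each counted as 1 sample.

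The test was edgeR 4.0.16 (quasi-likelihood F-test, robust, group as the sole term, TMM scaling, minimum count 10, minimum total 15; R 4.3.3, limma 3.58.1), with Benjamini-Hochberg adjustment over all tested genes and a threshold of 0.05. CPM are counts scaled by TMM library size, and RPKM divide them by the deposited exon length. For the GC offset, a spline (6 degrees of freedom) was fitted in each library to log2 deviations from the gene's mean against transcript GC, taking the longest GENCODE transcript (coding ones first), and the fitted values were entered as a gene-by-library offset. A true change that follows GC would be removed as well. Both fits were checked on simulated data. The PLIN3 to PLIN2 ratio used a pseudocount of 1 and an exact permutation test over 20 arrangements.

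The members, gene lists and alternatives were chosen with earlier results of these data known. Genes named beside the members are up to 4 per list with the smallest p in the group fit, the genes most like FITM2 in Pearson correlation, and, chosen after their values were seen, ACSL1, ACSL5, PLIN1, PLIN5, FITM1, CIDEA and CIDEB, and EPCAM and the marker genes without reads or with low levels. Overlaps are given for named list genes where the other gene held at least 10% as many reads.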

Additional observations from a re-analysis of the deposited data

How the results depend on the processing

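The direction of FITM2, LDAH, TMEM159, BSCL2, PLIN2, PLIN3, HILPDA, ACSL3 and RAB18 was the same in all alternatives run. FITM2 (log2 fold change −1.22 to −0.98) and LDAH (−0.86 to −0.47) were called in every one. PLIN4 turned with the GC offset (−0.04), with GC and length (−0.03), with the mean GC of all transcripts (−0.05, added after seeing the data) and with the GC offset and replicate block (−0.05). Leaving out single libraries with the GC offset gave −0.13 to 0.01 for PLIN4 (−0.02 without shCTRL replicate 1, −0.08 without shCTRL replicate 2).

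Of all genes, 7205 were called in the group fit, 4275 with the GC offset, 4224 with GC and length, 4269 with the mean GC of all transcripts and 4181 with the GC offset and replicate block. Leaving out single libraries gave 5338 to 9008 in the group fit, highest without shCTRL replicate 3, and 2806 to 5618 with the GC offset, lowest without shFITM2 replicate 1 (2910 and 3084 without shFITM2 replicates 2 and 3, 3281 and 3724 without shCTRL replicates 1 and 2). The members called higher were 4 in the group fit, 2 at an adjusted p under 0.01, 1 with the GC offset, with GC and length and with the mean GC of all transcripts, and 0 with the GC offset and replicate block. The shares of all tested genes called higher were 24.2%, 15.9%, 11.8%, 12.1%, 11.9% and 11.7%, in that order. Without single libraries, 2 to 4 members were called higher in the group fit (17.1% to 29.5% of all tested genes). With the GC offset these were 0 to 2 (7.4% to 15.5%). The members called lower were 4 in the group fit, 3 with the GC offset and 2 with the GC offset and replicate block, where ACSL3 (adjusted p = 0.0563) was no longer called. TMEM159, the member called higher with the GC offset, was not called with the block added either (adjusted p = 0.0731). The shares of all tested genes called lower were 24.5% in the group fit, 17.4% with the GC offset and 16.8% with the offset and block. Without single libraries, 4 or 5 members were called lower (18.1% to 29.5% of all tested genes). With the GC offset these were 2 to 5 (11.3% to 21.8%). The log2 ratio of PLIN3 to PLIN2 differed by 0.71 to 1.19 without single libraries.

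Same-numbered libraries did not deviate together (correlations −0.0653 to −0.00656, none of them the highest of its library), so no pairing was detected. A weak pairing could go unseen with 3 libraries per group. The replicate number as a block left 6729 genes called (45.4% of those tested), with 4 members higher and 4 lower. It gave a FITM2 log2 fold change of −1.12 and a PLIN3 to PLIN2 difference of 0.94 (exact sign-flip p = 0.25, the smallest that 3 pairs allow). DESeq2 size factors, library totals, a filter at a mean of 1 CPM, the DESeq2 1.42.0 Wald test and limma-voom left the same 8 members called as the group fit. Between 46.4% and 53.5% of all tested genes were called in these alternatives. Without an expression filter (25.4% of genes called) PLIN2 was called as well (−0.30, adjusted p = 0.0492), and likewise with GC and length (−0.33, adjusted p = 0.0482, 28.9% of genes called). FITM2, at 84 to 250 reads, and BSCL2, at 70 to 115 reads, had the widest errors of the 10 genes, and changes in BSCL2 as small as its 0.27 with the GC offset could not be resolved at this depth.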
